A study of Mus musculus with 6 samples.

Results

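The comparison described here set cochlear RNA of noise-exposed mice taken 12 h after an injection of dexamethasone against cochlear RNA of noise-exposed mice taken 12 h after an injection of saline. It rests on 2 of the 6 arrays of the series, 1 array per group, which share a slide. The members are the genes whose probe was well above background on both arrays, and there were 24203 of them among 37318 genes named on the array. No level chose them beyond that detection call.

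The dexamethasone array carried RNA of female C57BL/6 mice, 6 weeks old, which received noise for 2 h and then 10 mg/kg dexamethasone (the labels name it dexamethasone sodium triphosphate) into the peritoneal cavity. The saline array carried RNA of mice of the same strain, sex and age, which received the same noise and then saline. Noise exposure is therefore shared by both groups. With 1 array each, the injection, the animals, the dissection and the array cannot be told apart. The other 4 arrays held cochlear RNA taken 24 h after dexamethasone, 24 h after saline, after noise without an injection, and from a baseline group with neither noise nor injection. Each group had 6 mice, per the design text, and whether their RNA was pooled is not stated there. With 1 array per group no difference has a replicate check, no p-value is given, and the intervals printed after folds cover spot error alone.

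Dexamethasone is a synthetic agonist of the glucocorticoid receptor, a hormone-activated transcription factor encoded by Nr3c1. The bound receptor raises transcription of genes with glucocorticoid response elements, such as Fkbp5, Tsc22d3 and Per1, and lowers transcription of many inflammatory genes that NF-kB, AP-1 and interferon regulatory factors drive. Glucocorticoids are also known to reduce circulating eosinophils and lymphocytes and to restrain bone-forming osteoblasts, and they are given to patients with sudden hearing loss.

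Values are given as levels, the background-corrected signal of a gene's probe divided by the 75th percentile of its array, and as differences, dexamethasone minus saline on the log2 scale. A level compares arrays for 1 probe and does not rank one gene against another. That percentile was a signal of 588 on the dexamethasone array and 537 on the saline array, and 610 to 679 on the other 4. Between 63% and 70.3% of probes were above background on an array, and no spot was saturated. Of 8 markers of cochlear cells, 6 were above background on both 12 h arrays. Otof, which hair cells need for synaptic release, stood at 3.79 after dexamethasone and 4.18 after saline, and Coch, an extracellular protein of the spiral ligament, at 57.4 after dexamethasone and 50.1 after saline. Tecta, a tectorial membrane protein, was above background on the saline array alone, and Slc26a5, the outer hair cell motor protein prestin, on neither. Genes of tissues around the cochlea (marrow, bone, muscle, mucosal glands and epidermis) were also measured on both arrays, and their values stand beside the results below. In bulk RNA, fewer cells of a type and less RNA per cell cannot be told apart.

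The dexamethasone array stood apart from the others in the layout of its bright spots. On it 838 of 59305 spots were at least 2-fold brighter than on every other array, against 498 on the saline array. Of the 838, 393 (46.9%) lay in patches. A spot lies in a patch when more than 10% of the non-control spots in the surrounding square of 9 by 9 (81 positions) were of that kind. None of the 498 on the saline array lay in a patch, and 8 to 53 spots did on each of the other 4 arrays. The patches covered 3.43% of the spots of the dexamethasone array. Of the 24203 measured genes, 840 (3.47%) were read from a patch. The patch rule uses the same signals as the comparison, so a gene in a patch is more likely to be high on the dexamethasone array by construction. Counts of higher genes are therefore given with and without patches.

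**Figure D1:**
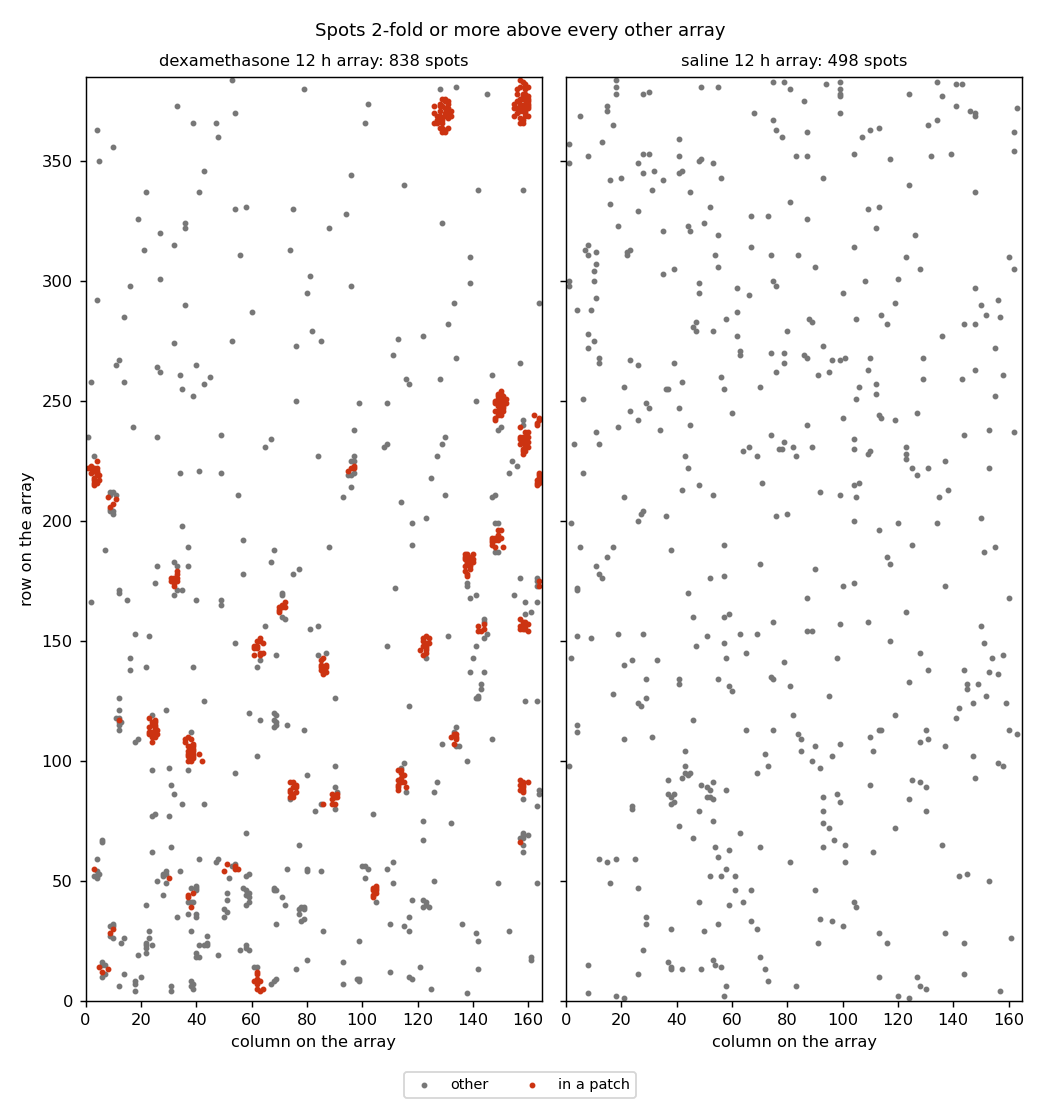
Each point is a spot at least 2-fold brighter on the named array than on the 5 others, drawn at its column and row on the dexamethasone array (left) and the saline array (right). On the dexamethasone array 393 of 838 points (red) gather in patches, and on the saline array 0 of 498 do.

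Of the 24203 genes, 412 (1.7%) were at least 2-fold higher after dexamethasone and 455 (1.88%) at least 2-fold lower. Without a size limit, 11365 (47%) lay above the saline value and 12838 (53%) below it, with a median difference of -0.03. The central 90% of differences lay between -0.72 and 0.60. Outside the patches 321 of 23363 genes (1.37%) were 2-fold higher and 440 (1.88%) 2-fold lower. In the patches lay 91 of the 412 higher genes (22.1%) and 15 of the 455 lower genes (3.3%). The share grew with size, and 41 of 94 genes at least 4-fold higher lay in patches, against 2 of 46 genes at least 4-fold lower.

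A gene's other probes, which sit elsewhere on the array, give a reading that the choice of its brightest probe did not use. Among lower genes with further measured probes, all of these had the same direction in 79 of 82 (96.3%). Among higher genes outside the patches this held for 44 of 49 (89.8%), and among higher genes inside them for 7 of 16 (43.8%). The higher genes were also dimmer, with 75 of 412 at or above the median signal of measured genes, against 163 of 455 lower genes. The difference drifted with brightness. The 1009 genes at 32 times the percentile or more had a median difference of -0.28 and the other 23194 genes -0.02. Scaling on the array's E1A spike-in probes instead of the percentile moved the median of all genes up by 0.27, and the differences below are relative to the percentile scaling.

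**Figure D2:**
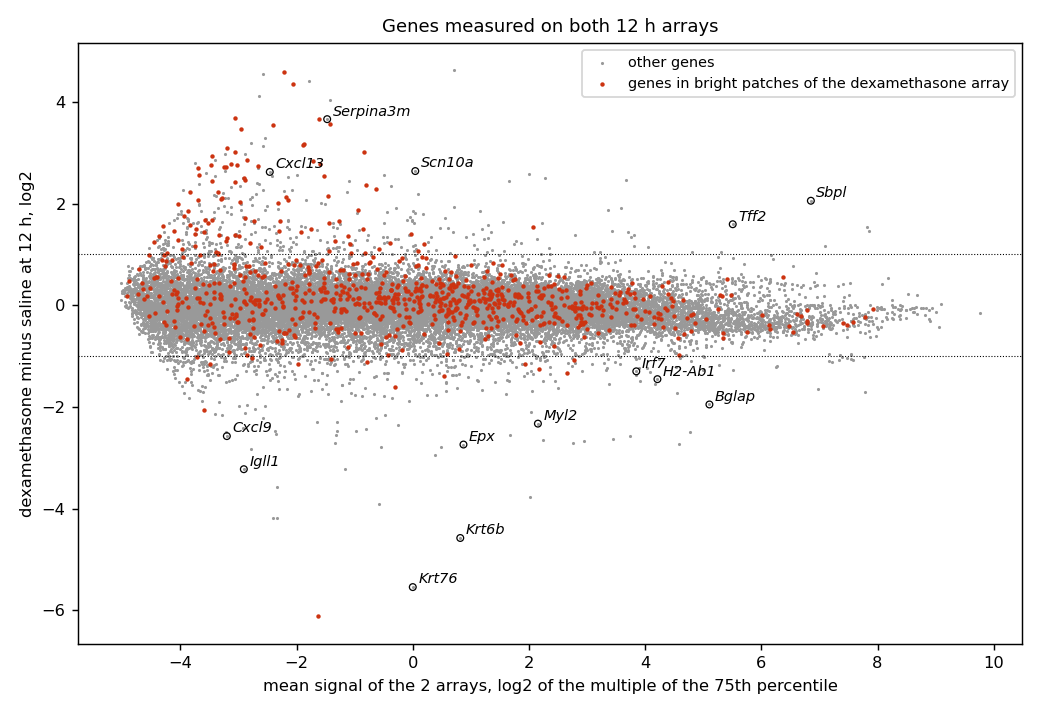
Each point is a gene measured on both 12 h arrays, with the mean log2 signal of the 2 arrays on the x axis and the log2 difference, dexamethasone minus saline, on the y axis. Dotted lines mark 2-fold, red points are genes read from patches of the dexamethasone array, and most red points beyond the upper line lie at low signal.

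Genes of the antiviral interferon response were lower after dexamethasone. All 26 measured genes of the list of antiviral effectors lay below their saline value, 5 of them at least 2-fold, with a median difference of -0.67. With spike-in scaling 23 of the 26 still lay below it, with a median of -0.40. The list of interferon sensors and transcription factors had 20 of 22 lower, with a median of -0.35 and 3 genes at least 2-fold lower. The list of interferon-inducible GTPases had 15 of 17 lower, with a median of -0.61 and none at least 2-fold. With spike-in scaling the sensor list had 17 of 22 lower with a median of -0.08, and the GTPase list 13 of 17 with a median of -0.34. With percentile scaling 53% of all genes lay below saline, and these lists lie to one side of that share. Their genes answer to the same inducers and are not independent of each other. Leukocyte markers were lower on the same array, and their part in the interferon result was not tested.

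Oas1a, a sensor of double-stranded RNA that starts RNA decay, had a level of 4.31 on the dexamethasone array and 9.43 on the saline array at 12 h. It stood at 5.64 after dexamethasone and 9.97 after saline at 24 h, at 9.38 after noise alone and at 3.77 at baseline. The dexamethasone arrays and the baseline array were the low ones, and both saline arrays and the noise array the high ones. Isg15, a ubiquitin-like modifier, had 8.35 after dexamethasone and 17 after saline at 12 h, 7.33 after dexamethasone and 12.9 after saline at 24 h, 13 after noise alone and 7.97 at baseline. It showed the same order. The 12 h difference was 2.19-fold lower for Oas1a (spot-error interval 1.66 to 2.88) and 2.03-fold lower for Isg15 (1.54 to 2.68).

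Irf7, the transcription factor that amplifies type I interferon production (probe at chr7:148449104-148449163, mm9), had a level of 9.17 on the dexamethasone array and 22.6 on the saline array, against 8.89 at baseline. Its difference was -1.30, and its other probe gave -1.34. Irf8, a transcription factor of myeloid and B cells, had 2.25 after dexamethasone and 5.25 after saline, and its other probe gave a difference of -0.74. Zbp1, a sensor of Z-form nucleic acids that can start necroptosis, had 0.443 after dexamethasone and 1.21 after saline, with -0.65 from its other probe. Ifi44 and Mx1, an antiviral GTPase, differed by -1.06 and -0.99.

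Promoters of some interferon genes are shown because a sequence element known from this group can be read in them. The interferon response element bound by interferon regulatory factors was searched as GAAANNGAAA on both strands in the 250 bases before each transcription start of the RefSeq promoter table (GRCm38.p6, the first start listed for a gene). Of the 3 interferon lists 43 measured genes had a promoter there, and 17 (39.5%) held the element. It was found in 2.7% of 14070 promoters of measured genes and in 3.04% of all 27025 promoters of the table. Its share was 8.67% (26 of 300) among genes at least 2-fold lower and 3.64% (8 of 220) among genes at least 2-fold higher. The promoters below were picked among lower interferon genes that held the element, so they do not show how common it is. Their capitals mark the element, and matches that overlap run together.
Oas1a, chr5:120907526-120907625, minus strand: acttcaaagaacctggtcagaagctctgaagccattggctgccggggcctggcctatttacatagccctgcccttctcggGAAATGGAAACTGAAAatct
Oas3, chr5:120777660-120777759, minus strand: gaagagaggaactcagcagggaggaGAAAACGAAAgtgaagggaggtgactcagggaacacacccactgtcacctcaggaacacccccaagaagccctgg
Isg15, chr4:156200819-156200918, minus strand: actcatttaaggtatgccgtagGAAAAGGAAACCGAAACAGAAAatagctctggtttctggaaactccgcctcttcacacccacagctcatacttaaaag
Gbp3, chr3:142559944-142560043, plus strand: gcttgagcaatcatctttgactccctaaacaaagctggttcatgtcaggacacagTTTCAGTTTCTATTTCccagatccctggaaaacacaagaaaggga
Gbp2, chr3:142620563-142620662, plus strand: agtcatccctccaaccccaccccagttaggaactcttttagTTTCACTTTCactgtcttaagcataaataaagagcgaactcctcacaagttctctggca
Tgtp2, chr11:49064213-49064312, minus strand: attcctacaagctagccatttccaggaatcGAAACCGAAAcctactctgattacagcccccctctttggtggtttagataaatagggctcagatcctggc
Each is the last 100 bases before the transcription start. Oas1a and Gbp3 held 2 overlapping matches each and Isg15 held 3, while Oas3, Gbp2 and Tgtp2 held 1. In Gbp3 and Gbp2, guanylate-binding GTPases that act on intracellular pathogens, the element lies on the opposite strand and reads as its reverse complement. The 17 genes with the element had a median difference of -0.77, with 16 lower, and the 26 without it a median of -0.43, with 24 lower. A match is a run of letters and not a measured binding site.

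The glucocorticoid response element core was searched as ACANNNTGT. It was found in 6.36% of promoters of 2-fold higher genes (14 of 220), 4% of 2-fold lower genes (12 of 300) and 4.14% of all measured genes. Of 24 known receptor targets with a promoter in the table, 3 held it. NF-kB sites searched as GGGAATTTCC or GGGACTTTCC were found in 0.22% of promoters of measured genes, and in 0 of the 220 higher and 0 of the 300 lower ones.

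Antigen presentation genes were lower as well. All 11 measured genes of MHC class II presentation lay below saline, 4 at least 2-fold, with a median of -0.95, and 17 of 18 genes of class I presentation did, 2 at least 2-fold, with a median of -0.58. H2-Ab1, the beta chain of the class II molecule I-A, had a level of 11.2 on the dexamethasone array and 30.7 on the saline array. It had 18.3 after dexamethasone and 16.6 after saline at 24 h, 10.11 after noise alone and 20.7 at baseline. The saline 12 h array was the highest of the 6, the dexamethasone 12 h array lay close to the noise array, and the 24 h arrays differed little. Its 3 other probes gave differences between -1.66 and -1.42. Cd74, the invariant chain that guides class II molecules, had 6.73 after dexamethasone and 13.2 after saline, and H2-Oa, a class II accessory chain of B cells, 0.257 after dexamethasone and 0.632 after saline. In the class I list the immunoproteasome subunit Psmb9 was 2.5-fold lower (interval 1.9 to 3.31) and Psmb8 2.22-fold lower (1.68 to 2.93). Tap1, the peptide transporter, had a difference of -0.90 and H2-D1 -0.75. B cells, which carry class II molecules, had lower marker signals on the same array (18 of 18 lower), and their part in the class II result was not tested.

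Among CC chemokines, which attract monocytes, lymphocytes and eosinophils, 12 of 14 measured genes were lower, with a median of -0.52. Ccl12, a monocyte attractant, had a level of 0.791 on the dexamethasone array and 2.01 on the saline array, and Ccl6 had 6.61 after dexamethasone and 14.5 after saline. Ccl5, an attractant of T cells, had 1.88 after dexamethasone and 3.75 after saline. Ccl2, the main monocyte attractant, had 5.03 after dexamethasone and 4.67 after saline, a difference of 0.11 that lies within spot error. The CXC and CX3C list had a median of -0.21, which became 0.06 with spike-in scaling. In it Cxcl9, an attractant of activated T cells, was 5.96-fold lower (4.02 to 8.84) at low levels, 0.0445 after dexamethasone and 0.266 after saline. Cxcl13, an attractant of B cells, had 0.451 on the dexamethasone array, against 0.0731 on the saline array and 0.0263 (not well above background) to 0.0842 on the other 4. Cxcl1, a neutrophil attractant, differed by 0.65 and Cxcl10 by -0.21.

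Cytokines and their receptors did not lean to a side, with 13 of 26 genes higher, 13 lower and none at least 2-fold apart, although with spike-in scaling 19 of 26 were higher. Il1rn, the interleukin-1 receptor antagonist, and Il1b differed by -0.98 and -0.64. Il6 had a level of 0.0534 after dexamethasone and 0.069 after saline, close to background. The list of NF-kB subunits and feedback genes had a median of -0.08, which became 0.19 with spike-in scaling, and no gene at least 2-fold apart. Its inhibitor Nfkbia, also a known glucocorticoid target, had 14.5 on the dexamethasone array and 16.9 on the saline array. The complement list had 14 of 19 lower and a median of -0.23, which became 0.04 with spike-in scaling.

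**Figure D3:**
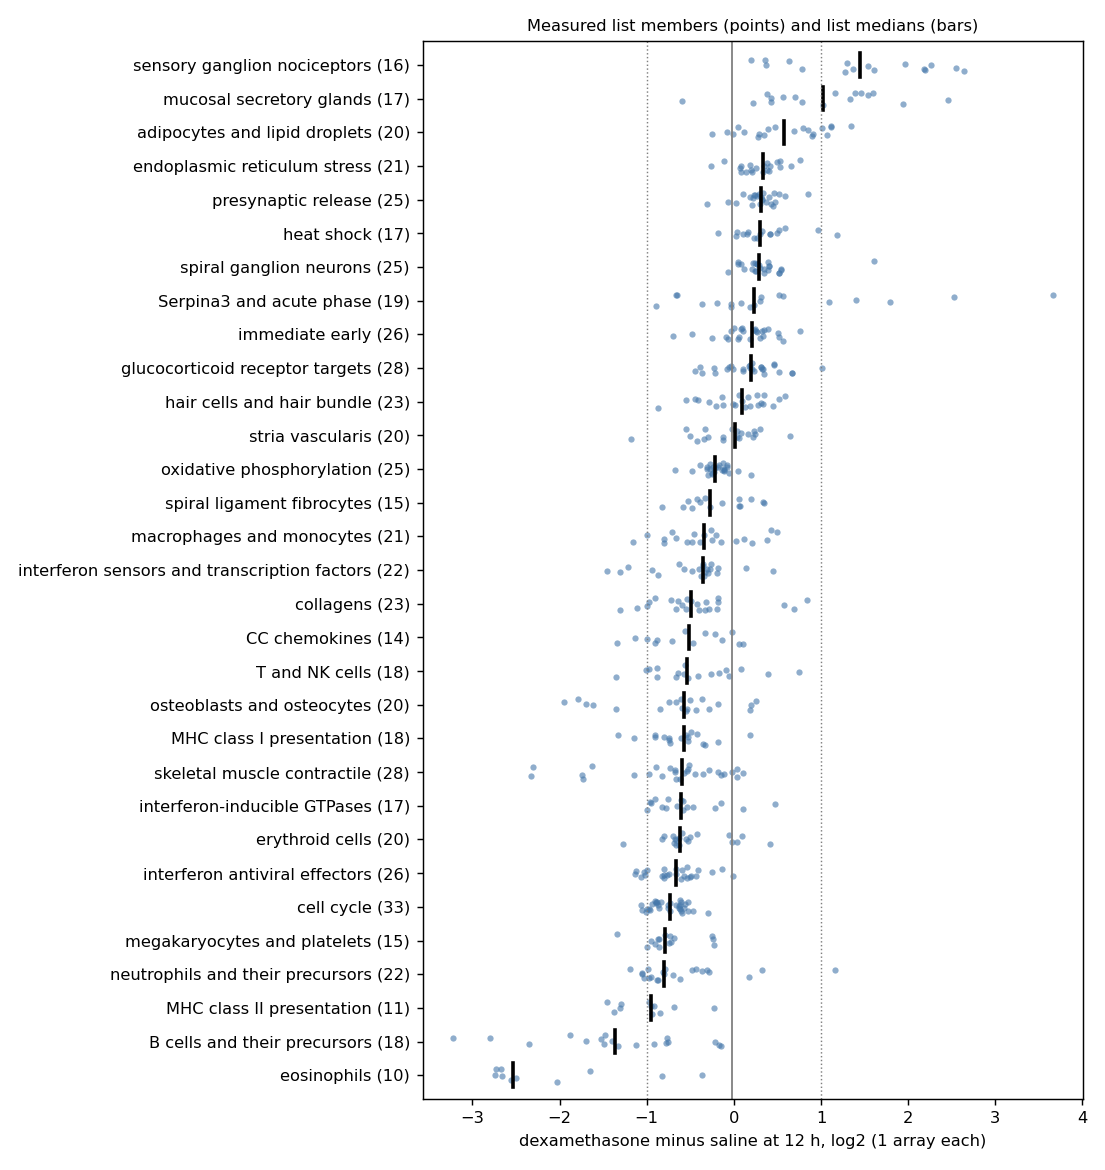
Points are the measured genes of 31 gene lists (number in brackets) on the log2 difference, dexamethasone minus saline at 12 h, black bars are list medians, the solid line is the median of all genes and dotted lines mark 2-fold. Eosinophil and B cell lists lie furthest to the left, and nociceptor and gland lists furthest to the right.

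Marker genes of marrow and blood cells were lower, most of all those of eosinophils. All 10 eosinophil genes were below saline, 8 of them at least 2-fold, with a median of -2.53. Their summed level was 28.3 on the dexamethasone array and 172 on the saline array at 12 h, 12.4 after dexamethasone and 27.8 after saline at 24 h, 10.4 after noise alone and 35.1 at baseline. The saline 12 h array thus held the highest eosinophil signal of the 6. Epx, the eosinophil peroxidase (probe at chr11:87678288-87678347, mm9), had a level of 0.708 after dexamethasone and 4.73 after saline, 6.69-fold lower (5.06 to 8.83), and Prg2, the granule major basic protein, 9.3 after dexamethasone and 61.8 after saline. Prg3, a homologue of Prg2, differed by -2.56, with -2.81 from its other probe. Ear1, Ear2 and Ear6, granule ribonucleases, differed by -2.68, -2.50 and -2.66, but the Ear genes are close paralogs and their probes were not checked for shared sequence. The receptors of the lineage differed less, Ccr3 by -0.83 and Il5ra by -0.37.

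All 18 measured B lineage genes were lower, 11 at least 2-fold, with a median of -1.36, and their summed level was 22.4 after dexamethasone and 50.5 after saline. The largest differences were in genes of B cell precursors. Vpreb1, a surrogate light chain, had a level of 0.531 on the dexamethasone array and 3.68 on the saline array at 12 h, 1.49 after dexamethasone and 1.27 after saline at 24 h, 0.208 after noise alone and 2.02 at baseline. The noise array was lower still, and the 24 h arrays were close to each other. Dntt, which adds untemplated bases during antigen receptor assembly, had 0.369 after dexamethasone and 1.88 after saline. Igll1, the partner of Vpreb1, differed by -3.23. The mature B cell genes Cd79a and Cd22 differed by -0.75 and -0.22, and the lineage factors Pax5 and Ebf1 by -0.15 and -0.17.

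Neutrophil genes were lower in 19 of 22, with a median of -0.80. Camp, a granule antimicrobial peptide, had 130 on the dexamethasone array and 268 on the saline array, and Ctsg and Padi4 were 2.07-fold and 2.29-fold lower. Ltf, lactoferrin, which glands also secrete, went the other way, with 206 after dexamethasone and 91.9 after saline. T and NK cell genes were lower in 15 of 18, with a median of -0.54, and Klrd1, a receptor chain of NK cells, was 2.55-fold lower (1.9 to 3.43). Mcpt8, a basophil protease, was 3.4-fold lower, with a median of -0.52 over the 10 measured mast cell and basophil genes. The macrophage list was lower in 15 of 21, with a median of -0.35, although its summed level was 745 after dexamethasone and 696 after saline. With spike-in scaling 11 of the 21 were lower, with a median of -0.08. Tyrobp and Fcer1g, signalling adaptors of myeloid cells, differed by -0.99 and -0.71. Aif1 was 2.23-fold lower, although its probe lies in a bright patch.

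All 33 measured cell cycle genes were lower, with and without spike-in scaling, with a median of -0.73 and 3 at least 2-fold. Ccnb2, the mitotic cyclin B2, had a level of 3.15 on the dexamethasone array and 6.63 on the saline array at 12 h, 2.54 after dexamethasone and 5.47 after saline at 24 h, 2.74 after noise alone and 5.71 at baseline. Both dexamethasone arrays and the noise array were low, and both saline arrays and baseline were high. Mcm5, a subunit of the replicative helicase, had 2.18 after dexamethasone and 4.36 after saline, and Tyms, which makes thymidylate, had a difference of -0.96. Megakaryocyte and platelet genes were lower in 15 of 15 with a median of -0.79, and Gp9, a chain of the platelet von Willebrand receptor, was 2.53-fold lower (1.92 to 3.34). Erythroid genes were lower in 17 of 20 with a median of -0.62. Ahsp, the chaperone of alpha globin, had 20.4 after dexamethasone and 49.4 after saline. The cell cycle genes moved together with these marrow markers, and the part of the marrow markers in the cell cycle result was not tested.

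Genes of bone formation were lower in 17 of 20, 5 of them at least 2-fold, with a median of -0.57. Bglap (probe at chr3:88188307-88188366, mm9), osteocalcin, a hormone and matrix protein of osteoblasts, had 17.5 on the dexamethasone array at 12 h. It had 67.8 on the saline array at 12 h, 65.5 after dexamethasone and 65.4 after saline at 24 h, 29.7 after noise alone and 61.9 at baseline. The dexamethasone 12 h array was the lowest of the 6, with the noise array next, and the 24 h arrays were alike. Alpl, the alkaline phosphatase that mineralising cells carry, had 3.24 after dexamethasone and 8.26 after saline, and its other probe gave a difference of -1.06. Ifitm5, an osteoblast membrane protein, and Panx3, a channel of osteoblasts and chondrocytes, were 3.45-fold and 3.06-fold lower. Osteoclast genes were lower in 13 of 14 but by less, with a median of -0.30. In the spike-in scaling 7 of those 14 lay below the saline value. Collagen genes were lower in 20 of 23, with a median of -0.49. Col2a1, the main cartilage collagen, had 3.41 after dexamethasone and 6.81 after saline, and Col22a1 had a difference of -1.30, with -1.25 from its other probe. At 24 h the medians of the bone formation and collagen lists were 0.03 and 0.16, on arrays that share no sample with the 12 h ones.

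**Figure D4:**
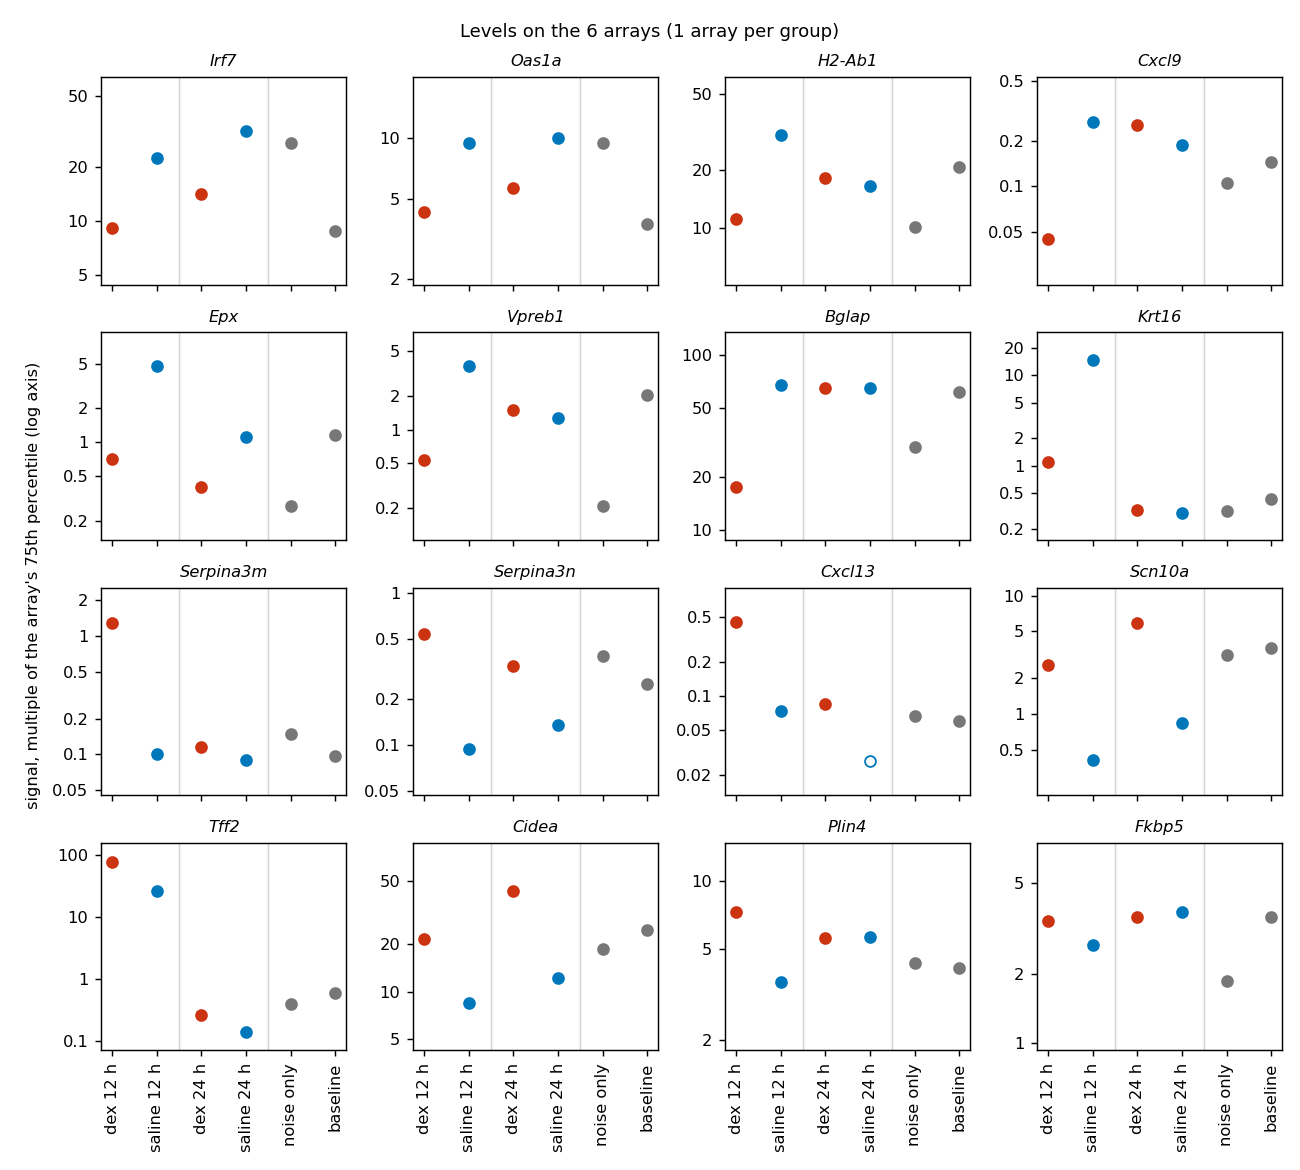
Levels of 16 genes on the 6 arrays, on log axes that differ between panels, with 1 point per array and an open point where the probe was not well above background. Irf7 and Oas1a are low on both dexamethasone arrays and at baseline, Bglap is lowest after dexamethasone at 12 h, and Scn10a is low on both saline arrays.

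The known glucocorticoid receptor targets differed little. Of 28 measured targets 19 were higher and 9 lower, with a median of 0.19, and 1 was at least 2-fold higher (1.7% of all measured genes were). With spike-in scaling 25 of the 28 were higher, with a median of 0.46. The gene at least 2-fold higher was Plin4, a lipid droplet coat protein, with 7.31 on the dexamethasone array and 3.61 on the saline array at 12 h. It had 5.59 after dexamethasone and 5.65 after saline at 24 h, 4.37 after noise alone and 4.12 at baseline. Plin4 also counts among the 5 genes at least 2-fold higher in the list of fat cells and lipid droplets below. Fkbp5, a co-chaperone that dampens the receptor, had 3.42 after dexamethasone and 2.68 after saline at 12 h, and its interval of 0.966 to 1.68 includes no difference. Tsc22d3, known as GILZ, Sgk1, a kinase that regulates sodium transport, and Klf9, a transcription factor, each differed by 0.18. Per1 differed by 0.10, Dusp1, a phosphatase that shuts off MAP kinases, by 0.23, and Zbtb16 by -0.08. Map3k6 and Nfil3, a repressor under circadian control, were 1.59-fold and 1.58-fold higher, with intervals of 1.21 to 2.1 and 1.2 to 2.09. The receptor gene Nr3c1 itself differed by 0.09 and Hsd11b1, which regenerates active glucocorticoid, by -0.19.

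Metallothioneins, metal-binding proteins of which glucocorticoids and zinc induce several, did not all move together. The list of metallothionein and zinc transport genes had 6 of 7 higher and none at least 2-fold, with a median of 0.305. Mt1 had 154 after dexamethasone and 98.6 after saline, and Mt2 had 83.3 after dexamethasone and 60.4 after saline. Mt4, which is not in that list, went the other way, with a difference of -3.58. The other probe of Mt1 gave a difference of -0.97, so the probes of Mt1 disagree. Heat shock genes were higher in 16 of 17, with a median of 0.30. Hspa1b, an inducible HSP70 chaperone, had 3.11 on the dexamethasone array and 1.37 on the saline array, against 0.794 to 1.96 on the other 4. Its near-identical copy Hspa1a was 1.95-fold higher (1.48 to 2.58), and probes of the pair may catch both transcripts. Endoplasmic reticulum stress genes were higher in 19 of 21 with a median of 0.33 and none at least 2-fold. Trib3, a pseudokinase of the stress response, and Dnajc3 differed by 0.76 and 0.66. Immediate early genes were higher in 20 of 26 with a median of 0.21, with Npas4 at 0.76 and Egr2 at -0.70. In the clock list Dbp, an output transcription factor, differed by -1.49, Nr1d1 by -0.97, Per2 by 0.69 and Cry1 by 0.53.

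The acute phase list had 12 of 19 genes higher, 5 of them at least 2-fold, and a median of 0.23. Serpina3m, a serine protease inhibitor of the antichymotrypsin family (probe at chr12:105632342-105632400, mm9), had a level of 1.28 on the dexamethasone 12 h array, against 0.101 on the saline 12 h array and 0.0904 to 0.148 on the other 4. It stood apart on that array alone, 12.7-fold higher (9.37 to 17.1). Serpina3n had 0.54 after dexamethasone and 0.0938 after saline at 12 h, 0.331 after dexamethasone and 0.135 after saline at 24 h, 0.382 after noise alone and 0.252 at baseline. Both saline arrays were the lowest for it. Serpina3f, Serpina3g and Serpina3i of the same cluster differed by -0.65, -0.67 and -0.89. Saa3, a serum amyloid, and Hpx, which binds free heme, were 2.12-fold and 2.65-fold higher.

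Genes of hepatocytes were mostly higher on the dexamethasone array than on the saline array at 12 h. A list of 26 such genes, assembled after values had been seen, had 20 measured members, of which 19 were higher and 12 at least 2-fold, with a median of 1.54. Another 4 (Apoa1, Ambp, Fgb and Fgg) were above background on the dexamethasone array alone, none on the saline array alone, and Apob and Fga on neither. Alb, serum albumin, had 1.51 on the dexamethasone array and 0.0919 on the saline array, and its probe was not well above background on the other 4. Ahsg, fetuin-A, had 0.401 after dexamethasone and 0.0617 after saline, and Serpinf2, alpha-2-antiplasmin, 0.665 after dexamethasone and 0.0383 after saline. Not every member was highest on the dexamethasone 12 h array. Cyp2e1 had 1.74 there and 0.341 after saline at 12 h, but 1.93 after saline at 24 h and 1.39 at baseline. Apoa2 had 2.92 there and 3.66 after noise alone. The summed level of the 20 genes, of which Hp makes up most, was 64 after dexamethasone and 45.4 after saline at 12 h and 22.9 to 42.4 on the other 4 arrays. Of the 26, only Serpinc1 was read from a patch. Among the higher genes, the differences of Apoa2, Hp, Cps1, Tat and Tdo2 lay within spot error. Serpina1a, Serpina1c, Serpina1d and Serpina1e, each at least 2-fold higher, are close paralogs. Their probes were not checked for shared sequence, and Serpina1b of the same family differed by -0.241. Serpina3m, Serpina3n and Hpx belong to genes that liver also expresses, and the part of liver RNA in their difference was not tested.

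Neuronal genes were higher, most of all those of pain-sensing neurons, whose cell bodies lie in sensory ganglia. All 16 measured nociceptor genes were above saline, 11 at least 2-fold, with a median of 1.45, and their summed level was 31.7 after dexamethasone and 11.9 after saline. At 24 h the sum was 59.8 after dexamethasone and 16.4 after saline, with 34.6 after noise alone and 44.2 at baseline. Scn10a, a sodium channel of nociceptors (probe at chr9:119517585-119517644, mm9), had 2.57 on the dexamethasone array and 0.413 on the saline array at 12 h, 5.83 after dexamethasone and 0.836 after saline at 24 h, 3.12 after noise alone and 3.6 at baseline. Both saline arrays were the low ones. Its other probe gave 0.52 at 12 h, less than the 2.64 of the brighter one. Scn11a and Trpa1, ion channels, and Mrgprd, a receptor of the same neurons, were 4.58-fold, 4.79-fold and 5.84-fold higher. Prph, peripherin, had 8.18 after dexamethasone and 2.68 after saline, and 1.45 from its other probe.

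Sympathetic and catecholamine genes were higher in 12 of 14, with a median of 0.46. Dbh, which makes noradrenaline, had 0.177 after dexamethasone and 0.034 after saline at 12 h. At 24 h it had 13.4 after dexamethasone, with saline below background, and it had 12 at baseline. Genes of spiral ganglion neurons, the afferent neurons of the cochlea, were higher in 24 of 25, but by a median of 0.29, with Prph the only one at least 2-fold higher. Slc17a6, their glutamate transporter, had 1.34 after dexamethasone and 0.921 after saline, and Gap43, a growth cone protein, 4.3 after dexamethasone and 2.95 after saline. Genes of presynaptic release were higher in 23 of 25 with a median of 0.31, and Syn1 and Stx1a differed by 0.59 and 0.85. The spiral ganglion list and the nociceptor list share Prph and moved together, and the part of neighbouring ganglia in the spiral ganglion result was not tested.

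In the list of mucosal gland genes 16 of 17 were higher, 9 of them at least 2-fold, with a median of 1.02. Their summed level was 1830 on the dexamethasone array and 1120 on the saline array at 12 h, against 334 to 459 on the other 4 arrays. Both 12 h arrays thus stood above the others. Some secretory genes outside the list were lower, with differences of -2.44 for Muc19 and -2.16 for Klk1. Bpifb2 differed by -6.12, although its probe lies in a bright patch. Tff2, a trefoil peptide of mucus, had 79 after dexamethasone and 26.2 after saline at 12 h and 0.142 to 0.607 elsewhere. Dmbt1, a mucosal scavenger receptor protein, had 385 after dexamethasone and 140 after saline, Reg3g, an antibacterial lectin, 29.8 after dexamethasone and 5.42 after saline, and the water channel Aqp5 22.7 after dexamethasone and 8.65 after saline. Odam and B4galnt2 were 5.44-fold and 6.02-fold higher and were likewise high on the 12 h arrays alone. Atf7, a transcription factor, was 3.68-fold higher by its brightest probe, while its 4 other probes gave 0.10 to 0.50.

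Genes of stratified epithelium were lower. Krt76, a keratin of oral epithelium, had 0.146 on the dexamethasone array and 6.83 on the saline array and was not above background on the other 4, and Krt6b had 0.36 after dexamethasone and 8.62 after saline. The folds were 46.7-fold lower (35 to 62.4) and 23.9-fold lower (18.1 to 31.7), the largest among genes at or above the median signal. Krt16, a keratin of activated epidermis, had 1.1 after dexamethasone and 14.9 after saline at 12 h, against 0.302 to 0.423 on the other 4 arrays, and -3.57 from its other probe. The saline 12 h array was the high one. Cornified envelope genes were lower in 14 of 15 with a median of -0.58, while keratins as a list split, 8 higher and 10 lower, with a median of -0.10 that became 0.17 with spike-in scaling. Lce3a and Lce3b, late envelope proteins of the skin, were above background on the saline array alone, at least 33.9-fold and 26-fold lower after dexamethasone. Skeletal muscle genes were lower in 25 of 28 with a median of -0.60, which was -0.25 with quantile normalization and -0.26 with normexp correction, where 20 of 28 were lower. Myl2 and Myh7, a light and a heavy chain of slow myosin, were 5.03-fold and 3.08-fold lower.

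Genes of fat cells and lipid droplets were higher in 17 of 20, 5 of them at least 2-fold, with a median of 0.58. Cidea, a lipid droplet protein of brown fat, had 21.6 on the dexamethasone array and 8.52 on the saline array at 12 h, 43.8 after dexamethasone and 12.3 after saline at 24 h, 18.7 after noise alone and 24.5 at baseline. Both saline arrays were the lowest. Plin1, Plin5 and Cidec were 2.17-fold, 2.16-fold and 2.1-fold higher, and Pck1, the gluconeogenic enzyme that fat also uses, 1.88-fold (1.42 to 2.48). Angptl8, a secreted regulator of lipoprotein lipase, had 1.91 after dexamethasone and 0.546 after saline at 12 h, and a difference of 2.59 at 24 h. In the sterol and fatty acid list 13 of 20 were higher, with Fasn, fatty acid synthase, at 69.1 after dexamethasone and 39.3 after saline. The summed level of the fat cell list was 161 after dexamethasone and 105 after saline at 12 h and 162 at baseline, and the part of fat cell number in the lipid result was not tested.

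Genes of the cochlear cell types differed little. Hair cell genes split into 14 higher and 9 lower with a median of 0.10 (18 of 23 higher with spike-in scaling), genes of the stria vascularis, which makes endolymph, into 10 higher and 10 lower with a median of 0.01, and genes of tectorial membrane and supporting cells into 10 higher and 6 lower. None of the hair cell and supporting cell genes was 2-fold apart. Chrna9, the efferent acetylcholine receptor of hair cells, had 0.559 after dexamethasone and 1.02 after saline, but its other probe gave 0.14. Kcne1, a subunit of the strial potassium channel, was 1.46-fold lower (1.11 to 1.93). Spiral ligament genes were lower in 9 of 15 with a median of -0.27, which with spike-in scaling was -0.01. Otos, otospiralin of its fibrocytes, had 152 after dexamethasone and 211 after saline. Genes of oxidative phosphorylation were lower in 23 of 25 by a median of -0.21, but that median turned to between 0.05 and 0.06 under quantile normalization, normexp correction and spike-in scaling.

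The 24 h arrays, on another slide, give a second pair for the same genes. There 1.55% of 22482 measured genes were at least 2-fold higher after dexamethasone and 1.48% at least 2-fold lower. Of the genes at least 2-fold lower at 12 h and measured at 24 h, 305 of 379 (80.5%) were lower at 24 h too, and of those higher at 12 h, 169 of 269 (62.8%) were higher. Of all genes measured at 24 h, 51.1% were below saline and 48.9% above it. At least 2-fold at both times were 74 lower genes (19.5% of the 12 h genes and 22.2% of the 24 h genes) and 61 higher genes (22.7% of the 12 h genes and 17.5% of the 24 h genes). Across genes the differences at both times had a Pearson r of 0.36 and a Spearman rho of 0.36, over genes that share arrays and are not replicates.

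Groups whose medians had the same sign at both times included the eosinophil genes (-2.53 at 12 h and -1.16 at 24 h), cell cycle genes (-0.73 at 12 h and -0.94 at 24 h), skeletal muscle genes (-0.60 at 12 h and -0.63 at 24 h), nociceptor genes (1.45 at 12 h and 2.03 at 24 h) and fat cell genes (0.58 at 12 h and 0.91 at 24 h). The antiviral effectors had a 24 h median of -0.72. Groups whose median was near 0 at 24 h were the bone formation genes, CC chemokines (-0.02) and gland genes (0.08), and B lineage and MHC class II genes had -0.21 and -0.23. Pituitary hormone genes had -0.63 at 12 h and 6.13 at 24 h, and cerebellar neuron genes 0.14 at 12 h and -0.96 at 24 h. Ranked by the smaller of both differences, the lower genes began with the eosinophil genes Ear7, Epx and Prg2, then Fam25c, Ampd1 of muscle, Myh7, Unc93a2, Dbp, Zbp1 and Myh7b. The higher genes by that rank included Scn10a, Htr3a, Mrgprd, Trpa1, Scn11a, Prdm12, Celf6, Pirt and Cartpt, most of them channels, receptors and transcription factors of peripheral neurons. Htr3a, a serotonin-gated channel, had 0.61 after dexamethasone and 0.104 after saline at 12 h and 2.19 after dexamethasone and 0.227 after saline at 24 h.

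**Figure D5:**
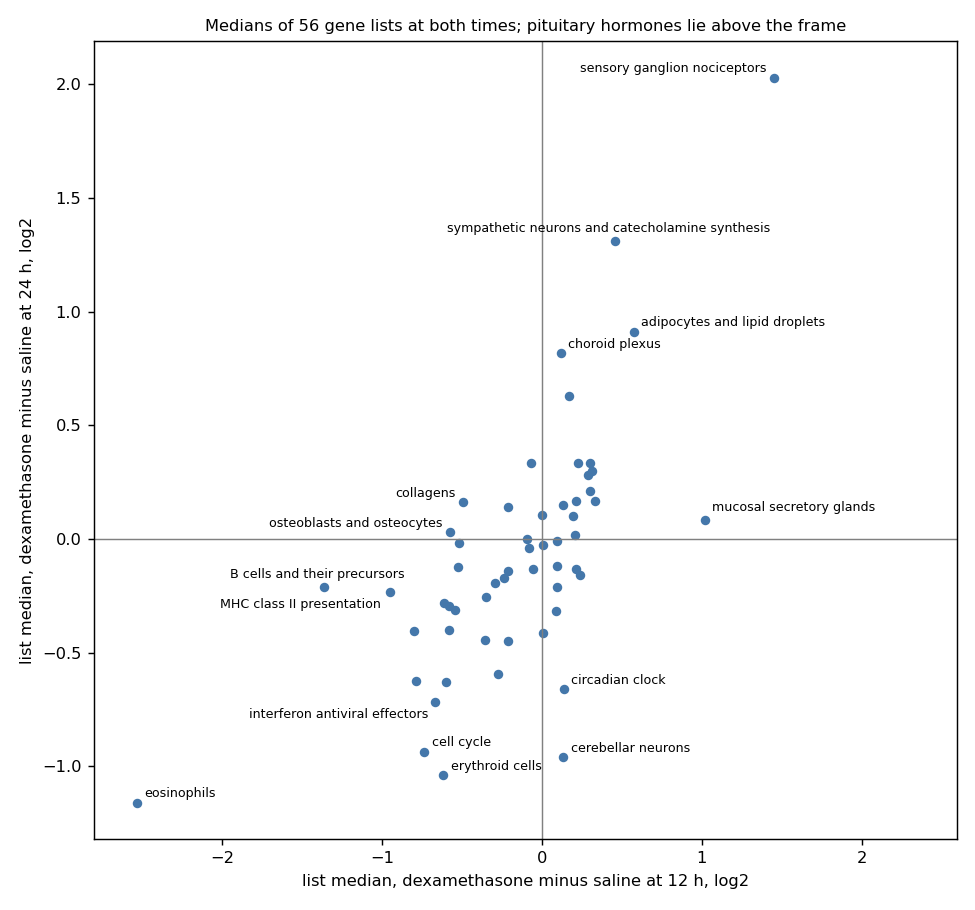
Each point is 1 of 56 gene lists, with its median log2 difference, dexamethasone minus saline, at 12 h on the x axis and at 24 h on the y axis, on pairs of arrays that share no sample. Nociceptor and fat cell lists are high at both times, eosinophil and cell cycle lists low at both, and the gland list is high at 12 h alone. The pituitary list lies above the frame at 6.13.

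A further 627 genes were above background on the dexamethasone array alone and 1521 on the saline array alone. By their lower bound, which sets the bright level against the higher of the dim array's detection floor and the gene's own signal there, 368 of the 627 were at least 2-fold higher and 111 of the 1521 at least 2-fold lower. Of the 368, 180 (48.9%) were read from patches, and of the 111, 3 were. The genes with the largest bounds on the dexamethasone array were Abhd16b, Lexm, Wfdc11, Klk15, Pramel14, Xlr3a, Myrfl, Ick, Pcdhb1 and Hoxb5, and all but Hoxb5 lay in patches. The genes with the largest bounds on the saline array were Lce3a, Lce3b, Lyg1, Crnn, Lce3e, Serpinb3a, Il1f6, Tmprss11a, Klk13 and Il20ra, none of them in a patch. Most of these are known from stratified epithelium.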

How the data were processed

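Cochlear RNA of 6 groups of mice was hybridised to 1-colour arrays, 1 array per group, labelled with Cy3 per the labels' protocols. The authors extracted the arrays with Agilent Feature Extraction 10.10.1.1, per the file headers, which subtracted background, removed spatial trends and flagged outlier spots. The deposited scanner files give probe positions on mm9 and hold the processed signal as intensity on a linear scale. In the deposited series matrix the values are log2, and for 100% of 56305 probes with 1 spot they differed from log2 of the scanner signal by the same amount throughout a column, within 0.001. Its column medians were -2.82 (dexamethasone 12 h), -2.86 (saline 12 h), -2.91 (dexamethasone 24 h), -2.94 (saline 24 h), -2.99 (noise) and -2.96 (baseline). Its scale, centring and direction are therefore known.

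From the intensity values, spots flagged as outliers and control spots were left out, log2 was taken, each array's 75th percentile was subtracted and the spots of a probe were averaged. Of 56605 probes, 32994 were named by accession through a RefSeq table of GRCm38.p6, with 1535 names changed, and 23611 kept the array's own name. Of all these probes, 16 were not used because every spot of the probe was flagged as an outlier on at least 1 array. A gene is shown by its measured probe with the highest mean over both 12 h arrays, and a probe is measured when well above background on both. Intervals are 1.96 times the scanner software's spot error, and beyond that the precision is limited by having 1 array per group. Probes spotted 10 times had a median SD of 0.036 to 0.0393 (log2) per array. Slide could not be a block, since both arrays of a comparison lie on 1 slide.

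The comparison, members and 57 gene lists were chosen with earlier results of these data known. The list of hepatocyte genes and the patch alternative were added after the values behind this report had been seen. Named genes are the 15 highest and 15 lowest at or above the median signal without clone names, the 6 most different members of each list, a fixed set of known targets and inflammatory genes, the 10 highest and lowest by the smaller of both time points, and 10 genes at each end by bound. List members named by a small difference and the hepatocyte genes were named outside this rule. Some genes that the rule names are not reported here. These steps were tested on simulated data. The steps used limma 3.58.1 in R 4.3.3 (normexp and quantile alternatives) and Python 3.11.15 with numpy 2.4.6, pandas 2.3.3, matplotlib 3.10.9 and scipy 1.17.1. The alternatives were other scalings, no filter on dim probes, only bright genes, the mean over a gene's probes, kept outlier spots, the series matrix, other fold thresholds and patches left out.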

Additional observations from a re-analysis of the deposited data

Results flagged for a closer look

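Of the named genes that were at least 2-fold apart at both times, 3 differed in opposite directions at 12 h and 24 h. The opposite directions were seen on 1 array per group, and the difference between the times was not tested. Pomc, the precursor of the pituitary hormone ACTH, differed by -1.14 at 12 h and 6.93 at 24 h, with levels of 1.91 after dexamethasone and 4.2 after saline at 12 h and 46.9 after dexamethasone and 0.385 after saline at 24 h. Prl, prolactin, differed by -1.10 at 12 h and 6.13 at 24 h, with 18.9 after dexamethasone and 40.6 after saline at 12 h and 52.1 after dexamethasone and 0.743 after saline at 24 h. Cxcl17, a mucosal chemokine, differed by 1.504 at 12 h and -1.004 at 24 h, with 0.387 after dexamethasone and 0.136 after saline at 12 h and 0.102 after dexamethasone and 0.205 after saline at 24 h.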

How the results depend on the processing

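Without a replicate array no difference could be checked against the spread between samples, and leaving out a replicate was not possible with 1 array per group. No paired analysis was possible because each group has 1 array. The numbers of genes at least 2-fold higher and lower, 412 and 455 as reported, were 215 and 187 (402 in all) with normexp correction and quantile normalization, 782 and 196 with spike-in scaling, 75 and 163 (238) among genes at or above the median signal and 1526 and 2114 (3640) with no filter on dim probes. They were 1270 and 1831 (3101) at a 1.5-fold threshold and 168 and 90 (258) at a 3-fold threshold. With patches left out they were 325 and 441, within 1.5 times the reported counts, as under quantile normalization, the other percentile, the series matrix, the mean over probes and kept outlier spots. Of the 364 named genes, none that was at least 2-fold apart changed sign under the scalings, filters and patch alternative, and 53 values of named genes moved by more than their spot error. Of the list medians at least 0.1 in size, those of CXC chemokines (0.0584), complement (0.0352), oxidative phosphorylation (0.0574) and ion transport (0.0597) became positive with spike-in scaling. Oxidative phosphorylation did so with quantile normalization (0.0532) and normexp correction (0.0493), and ion transport among bright genes (0.037) and with the mean over probes (0.029), where choroid plexus turned to -0.034. The causes were not tested.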

Other observations

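Among gene groups not described above, 12 of 17 claudin and tight junction genes and 11 of 18 endothelial genes were higher after dexamethasone than after saline, with medians of 0.24 and 0.09. Genes of muscle atrophy and FoxO signalling were higher in 11 of 15, with a median of 0.21. Ctsl, a lysosomal protease, had a level of 47.8 on the dexamethasone array and 30.3 on the saline array, against 28.3 to 31.7 on the other 4, and its other probe gave a difference of 0.56. Fbxo32, a muscle ubiquitin ligase, had 2.69 after dexamethasone and 1.9 after saline, and Mstn, myostatin, 0.189 after dexamethasone and 0.0965 after saline. Schwann cell and myelin genes split into 9 higher and 11 lower, with a median of -0.06 that became 0.20 with spike-in scaling. The water channel Aqp3 was 2.73-fold higher (2.07 to 3.6), and Sln, sarcolipin, a regulator of the muscle calcium pump, had 23.2 after dexamethasone and 6.14 after saline at 12 h.

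Spots of genes at least 2-fold higher in the bright patches of the dexamethasone array had a median pixel variation of 37.4%, against 20.6% for such genes outside the patches, 20.1% for genes at least 2-fold lower and 17.2% for all measured genes.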
